A study of Mus musculus with 4 samples.

Results

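The 26S proteasome, which degrades proteins tagged with ubiquitin, is built from a core particle and a regulatory cap. The constitutive subunit genes were taken as every measured gene whose symbol begins with Psma, Psmb, Psmc or Psmd followed by a digit, without the inducible catalytic genes Psmb8, Psmb9 and Psmb10. This gave 37 of the 31053 genes measured, 16 of the core (Psma and Psmb) and 21 of the cap (Psmc and Psmd). One of the 37 is a subunit by its symbol only: Psmc3ip encodes a partner of a cap protein that acts in meiotic recombination. Psmd5, Psmd9 and Psmd10 encode chaperones that help to assemble the base of the cap and leave it afterwards.

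The genes were followed in mouse small-intestinal crypt cells, sequenced cell by cell with a droplet kit that tags the 3′ end of each RNA. All recipients were female C57BL/6 mice aged 8 to 12 weeks that had been lethally irradiated, and cells were taken 7 days after bone marrow transplantation. The allogeneic recipients got BALB/c marrow and are labelled as having graft-versus-host disease, while the syngeneic recipients got marrow of their own strain and are labelled as controls. Each group had 2 libraries, and each library pooled 3 to 4 mice, so n = 2 pools per group throughout and no value of a single mouse exists. Because both groups were irradiated, neither shows the gene in an untreated crypt. What the "KO" at the start of each library name stands for is not stated in the labels.

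In the core particle, 7 kinds of alpha subunit (Psma) form the outer rings and gate the entrance, and 7 kinds of beta subunit (Psmb) form the inner rings, of which 3 cut proteins. In the cap, 6 ATPases (Psmc) unfold the substrate and push it into the core, while the other subunits (Psmd) bind ubiquitin and remove it. Interferon gamma, a cytokine made by T cells, induces Psmb8, Psmb9 and Psmb10, whose products take the places of the constitutive catalytic subunits Psmb5, Psmb6 and Psmb7 and change which peptides are cut for presentation. When proteasome activity is too low, the transcription factor Nfe2l1 binds antioxidant response elements and raises many subunit genes together. Psma8 and Psmb11 are subunits of specialised proteasomes, of the testis and of the thymic cortex.

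The promoters of the members are shown because their transcripts varied together between libraries and because 5 of them hold the core of the antioxidant response element, spelled TGACNNNGC, in the 250 bases before the annotated start (RefSeq, GRCm38.p6; both strands searched). The capitals mark the match:
Psmb5: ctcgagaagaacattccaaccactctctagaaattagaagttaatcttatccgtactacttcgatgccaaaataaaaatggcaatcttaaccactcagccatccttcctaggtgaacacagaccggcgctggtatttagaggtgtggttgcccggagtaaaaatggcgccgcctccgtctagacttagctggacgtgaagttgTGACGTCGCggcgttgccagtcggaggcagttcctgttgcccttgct
Psmb6: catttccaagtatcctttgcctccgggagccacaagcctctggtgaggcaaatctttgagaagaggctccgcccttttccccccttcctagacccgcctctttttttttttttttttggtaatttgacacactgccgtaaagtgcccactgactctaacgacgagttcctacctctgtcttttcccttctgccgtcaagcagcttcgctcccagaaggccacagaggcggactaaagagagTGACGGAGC
Psmc6: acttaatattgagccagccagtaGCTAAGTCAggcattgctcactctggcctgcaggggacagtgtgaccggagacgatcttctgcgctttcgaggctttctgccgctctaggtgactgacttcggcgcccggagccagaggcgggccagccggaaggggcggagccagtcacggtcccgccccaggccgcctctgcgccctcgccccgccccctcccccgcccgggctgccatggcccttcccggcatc
Psmd9: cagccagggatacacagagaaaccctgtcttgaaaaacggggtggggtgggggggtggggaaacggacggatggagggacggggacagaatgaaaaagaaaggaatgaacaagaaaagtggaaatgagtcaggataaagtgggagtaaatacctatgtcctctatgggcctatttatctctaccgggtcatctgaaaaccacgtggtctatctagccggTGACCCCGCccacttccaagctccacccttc
Psmd12: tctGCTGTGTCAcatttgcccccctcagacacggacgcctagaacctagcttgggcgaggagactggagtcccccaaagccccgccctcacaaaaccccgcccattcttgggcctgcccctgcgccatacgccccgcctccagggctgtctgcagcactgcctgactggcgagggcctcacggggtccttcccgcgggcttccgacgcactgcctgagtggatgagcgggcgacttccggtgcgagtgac
These windows lie at chr14:54617996-54618245 on the minus strand (Psmb5), chr11:70525107-70525356 on the plus strand (Psmb6), chr14:45329574-45329823 on the plus strand (Psmc6), chr5:123227940-123228189 on the plus strand (Psmd9) and chr11:107479278-107479527 on the plus strand (Psmd12). The match began 47 bases before the start in Psmb5, 9 bases before it in Psmb6 and 31 bases before it in Psmd9, but 227 and 247 bases before it in Psmc6 and Psmd12, at the far end of the window. Promoter windows were at hand for 30 of the 37 members, 32 windows in all. The element was in 15.6% of these windows and in 10.2% of all 32851 windows. The CCAAT box, spelled CCAAT, was in 40.6% of member windows (7 of 13 core windows and 6 of 19 cap windows) and in 33.8% of all windows. None of the printed windows held a CCAAT box, so no marked stretch overlaps one. These matches describe letters and no binding was measured.

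Library quality bears on every comparison. The total counts were 16755124 and 26677842 UMIs (molecular tags that let each captured RNA be counted once) in allogeneic libraries 1 and 2, against 18262459 and 14961466 UMIs in syngeneic libraries 1 and 2. Of 16565 barcodes, 12196 cells were kept, and 11694 of them (95.9%) passed the gates for epithelial cells, namely 1809 and 4606 allogeneic cells against 2853 and 2426 syngeneic cells. Epithelial marker genes such as Epcam and Krt8 were present in all 4 libraries, which fits the labelled cell type. Allogeneic 1 had 27.2% of its barcodes above the mitochondrial limit of 20%, against 11.2% in allogeneic 2 and 14.6% and 14.9% in the syngeneic libraries. Libraries shared between 2 and 7 cell barcodes per pair. In epithelial sums, the 10 T or NK marker genes together reached 8.80 and 6.74 CPM in allogeneic libraries, against 3.87 and 4.17 CPM in syngeneic libraries.

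Cells were gated into classes by summed marker counts, and the allogeneic libraries differed in their mix. The stem-like share of epithelial cells was 25.3% and 5.25% in allogeneic libraries 1 and 2, against 27.0% and 19.7% in syngeneic libraries 1 and 2. Enterocyte-like cells were 19.3% and 40.4% in allogeneic libraries, against 17.4% and 21.8% in syngeneic libraries. In sums over all epithelial cells, a change in the mix of classes and a change per cell cannot be told apart, so each class is also given on its own.

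Across the epithelium nearly every constitutive subunit gene leaned upward in allogeneic libraries, but no gene passed the test. Of 35 members tested, 34 had a positive log2 fold change, against 53.1% of all 12034 genes. The median was 0.49 for 14 core members and 0.33 for 21 cap members, against 0.028 for all genes. Genes of like level leaned upward too, to a smaller extent. The 857 genes between the members' lower and upper quartile of level had a median of 0.19, and 74.8% of them were positive. None of the 35 was called by edgeR's quasi-likelihood test at an adjusted p under 0.05, none reached an unadjusted p under 0.05 (9.89% of all genes did), and DESeq2 called none; 0.141% of all genes tested were called. The smallest adjusted p was 0.630, for Psmd9. The 2 allogeneic libraries differed in TMM-scaled levels: allogeneic 2 was above allogeneic 1 in 34 of 35 members.

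The catalytic beta subunits are given first. Psmb5, whose product has the chymotrypsin-like activity, was at 207 and 371 CPM in allogeneic libraries 1 and 2, against 235 and 246 CPM in syngeneic libraries 1 and 2 (CPM, UMI counts scaled to a common library size by TMM; n = 2 pools per group). Allogeneic 1 was the lowest of the 4 and allogeneic 2 the highest, so the groups overlapped, with a log2 fold change of 0.26 (SE 0.37, edgeR adjusted p = 0.873). Psmb6, the subunit with caspase-like activity, behaved alike, at 250 and 411 CPM in allogeneic libraries and 296 and 287 CPM in syngeneic libraries (log2 fold change 0.18, SE 0.36, edgeR adjusted p = 0.910). Psmb7, with the trypsin-like activity, was at 119 and 156 CPM in allogeneic libraries against 97.9 and 96.7 CPM in syngeneic libraries. Psmb7 was therefore the one catalytic gene with both allogeneic libraries above both syngeneic ones, by 0.50 on the log2 scale (SE 0.26, edgeR adjusted p = 0.634).

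**Figure D1:**
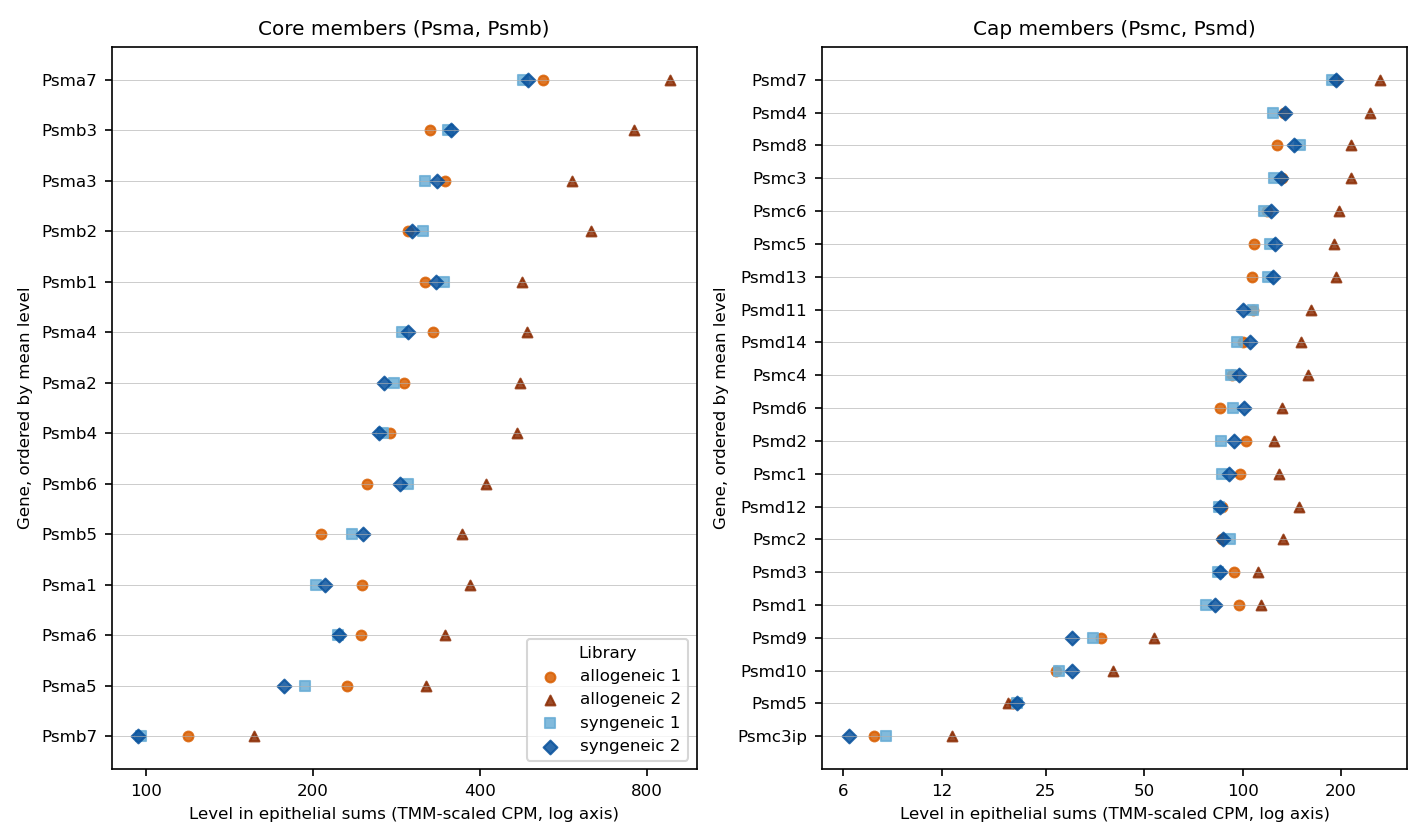
TMM-scaled CPM (log axis) of each tested core and cap member in the epithelial sums, one symbol per library, genes ordered by mean level. Triangles (allogeneic 2) lie to the right of the other 3 symbols for all members except Psmd5, while allogeneic 1 lies close to the 2 syngeneic libraries.

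The other core genes show the same picture. Each UMI marks 1 molecule whatever its length, so levels of different genes are set side by side without division by length. The 3 highest members were Psma7, Psmb3 and Psma3, which encode 2 alpha subunits and a beta subunit without catalytic activity. Psma7 stood at 519 and 880 CPM in allogeneic libraries, against 478 and 488 CPM in syngeneic libraries. Psmb3 stood at 325 and 758 CPM in allogeneic libraries, against 350 and 355 CPM in syngeneic libraries, and its difference between the 2 allogeneic libraries was the largest of any member. Psma3 stood at 345 and 586 CPM in allogeneic libraries, against 318 and 334 CPM in syngeneic libraries. In Psma7 and Psma3 both allogeneic libraries were above both syngeneic ones, but allogeneic 1 only narrowly.

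Psma5 and Psma1, alpha subunits like Psma7, had the smallest unadjusted p in the core after Psmb7. Psma5 was at 230 and 320 CPM in allogeneic libraries against 194 and 177 CPM in syngeneic libraries (log2 fold change 0.57, SE 0.31, edgeR adjusted p = 0.659). Psma1 was at 245 and 384 CPM in allogeneic libraries against 203 and 210 CPM in syngeneic libraries (log2 fold change 0.61, SE 0.34, edgeR adjusted p = 0.671). In both, allogeneic 1 was also above both syngeneic libraries, so the 2 groups did not overlap. Psma8 had 2 UMIs in all, 1 in each syngeneic library, and Psmb11 had none in any library; neither was tested.

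In the cap, Psmd4, which binds ubiquitin chains, was at 134 and 244 CPM in allogeneic libraries against 124 and 134 CPM in syngeneic libraries. Its groups overlapped by the width of rounding, since allogeneic 1 and syngeneic 2 were both at 134 CPM, and its log2 fold change of 0.55 was the largest of the cap (SE 0.36, edgeR adjusted p = 0.729). Psmd14, which cuts ubiquitin chains off the substrate, was at 100.5 and 151 CPM in allogeneic libraries against 95.8 and 105 CPM in syngeneic libraries, also overlapping (log2 fold change 0.32, SE 0.29). Psmd1, the scaffold of the cap's base, was at 97.2 and 114 CPM in allogeneic libraries against 77.2 and 82.6 CPM in syngeneic libraries and did not overlap (log2 fold change 0.40, SE 0.23, edgeR adjusted p = 0.683). Psmd1 shares exon sequence with the overlapping gene model Gm21972 on the same strand, so its count may be affected by that overlap.

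Among the assembly chaperones, Psmd9 was at 37.0 and 53.5 CPM in allogeneic libraries against 34.8 and 30.1 CPM in syngeneic libraries (log2 fold change 0.48, SE 0.25). Psmd5 was the one member whose fold change was negative, and its 4 values hardly differ: 19.9 and 19.2 CPM in allogeneic libraries, against 20.4 and 20.4 CPM in syngeneic libraries. The recombination factor Psmc3ip, the lowest tested member, was at 7.43 and 12.9 CPM in allogeneic libraries against 8.11 and 6.24 CPM in syngeneic libraries, and it differed most between the 2 syngeneic libraries. The 6 ATPases of the cap ring ran between log2 fold changes of 0.27 and 0.44, and the 11 other cap subunits between 0.16 and 0.55.

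Seen by overlap rather than by test, 17 of 35 members (9 core and 8 cap) had both allogeneic libraries above both syngeneic ones, and 1 (Psmd5) had both below. Over all genes tested 20.5% were higher in this sense and 20.7% lower. A tighter comparison takes the 857 genes that lie between the members' lower and upper quartile of level, 101 and 288 CPM: 25.3% of them had both allogeneic libraries higher. Scaling by total counts in place of TMM moved the members' count to 28 of 35, against 18.3% of all genes.

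In TMM-scaled levels, the library medians show where the lean lies. Each member's level was divided by its mean syngeneic level; the median log2 of this ratio over core members was 0.085 in allogeneic 1 and 0.78 in allogeneic 2. For cap members it was 0.011 in allogeneic 1 and 0.58 in allogeneic 2. The 2 syngeneic libraries lay within 0.027 of 0 in both groups of genes. The 857 genes between the members' quartiles of level were at -0.094 in allogeneic 1 and 0.44 in allogeneic 2, and 80.3% of them were higher in allogeneic 2 than in allogeneic 1, against 34 of 35 members and 47.0% of all genes. Genes of like level therefore differed in the same direction between the 2 allogeneic libraries, to a smaller extent. That allogeneic 1 lay near the syngeneic libraries depended on TMM scaling. By total counts in place of TMM, core members summed to 4529 and 5770 CPM in allogeneic and 4031 and 3843 CPM in syngeneic libraries. Cap members summed to 2224 and 2570 CPM in allogeneic and 2002 and 1972 CPM in syngeneic libraries. Allogeneic 1 was then above both syngeneic libraries, and allogeneic 2 was still the highest. Which scaling suits these libraries better was not tested.

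**Figure D2:**
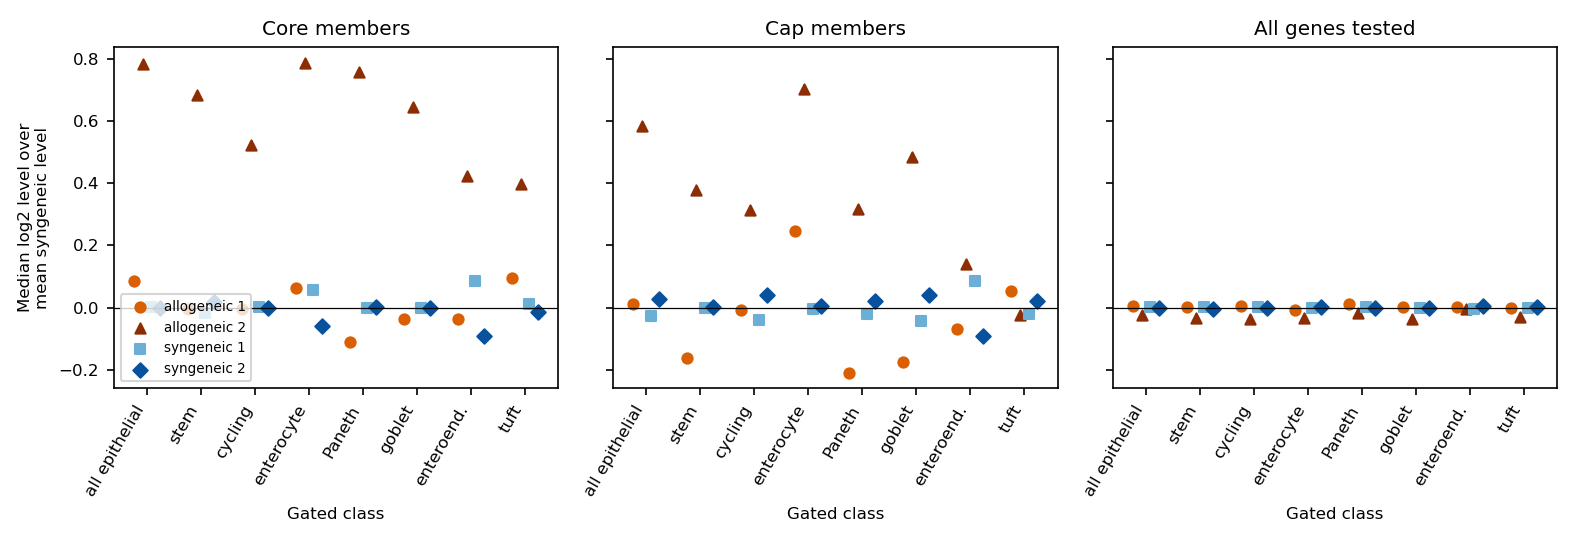
Median over core members, cap members and all genes tested of the log2 TMM-scaled level relative to the mean syngeneic level, by library, in all epithelial cells and in each gated class. In the epithelial sums allogeneic 2 stands at 0.78 for core and 0.58 for cap members and allogeneic 1 at 0.085 and 0.011, while all genes stay near 0 in every library.

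The ratio of core to cap counts, formed inside each library and so free of any scaling, was higher in both allogeneic libraries in all epithelial cells and in 3 of the 7 classes. It was 2.04 and 2.24 in allogeneic libraries against 2.01 and 1.95 in syngeneic libraries for all epithelial cells. In stem-like cells it was 2.19 and 2.47 in allogeneic libraries against 2.06 and 2.06 in syngeneic libraries, in goblet-like cells 2.15 and 2.31 against 2.03 and 1.94, and in tuft-like cells 1.81 and 2.19 against 1.65 and 1.73. In these the groups did not overlap. In the other 4 classes they did: the ratio was 1.51 and 1.81 in allogeneic against 1.76 and 1.61 in syngeneic enterocyte-like cells, where the allogeneic mean was the lower one, and in cycling progenitor-like cells allogeneic 1 lay between the 2 syngeneic libraries. It was 1.92 and 2.48 in allogeneic against 1.97 and 1.95 in syngeneic Paneth-like cells, and 1.86 and 2.22 against 1.87 and 2.00 in enteroendocrine-like cells. With 2 pools against 2 an exact permutation test cannot give a p below 0.333, so none is given.

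Within the classes no member passed the test, with 34 members tested in enterocyte-like, 31 in enteroendocrine-like and tuft-like and 35 in each other class. Stem-like cells, which renew the epithelium, had median log2 fold changes of 0.39 for core and 0.12 for cap members, and 1.01% of all genes were called. Cycling progenitor-like cells, the dividing offspring of stem cells, had 0.28 and 0.12, with 4.89% of genes called. Enterocyte-like cells, which absorb nutrients, had 0.50 and 0.48, with 2.4% called. Paneth-like cells, which make antimicrobial peptides, had 0.39 and 0.13, with 1.02% called, and mucus-making goblet-like cells had 0.40 and 0.23, with 0.354% called. Hormone-making enteroendocrine-like cells had 0.19 and 0.0082, with 2.1% called, and chemosensory tuft-like cells had 0.26 and 0.047, with 0.312% called. The core median was above the cap median in each of the 7 classes with all libraries, but in enterocyte-like cells it was below it without syngeneic 2 (0.42 and 0.51) and without allogeneic 2 (0.069 and 0.26). DESeq2 called no member in any class. The order of classes depended on the gates. With gates 2 times as high (stricter gates), core and cap medians were 0.26 and 0.0093 in stem-like cells. In cycling progenitor-like cells they were then 0.42 and 0.21, above those of stem-like cells.

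At an unadjusted p under 0.05, 7 of 34 members were found in enterocyte-like cells (15.8% of all genes), 1 of 35 in Paneth-like (Psmd9; 8.7%) and 1 of 31 in tuft-like cells (Psmd7; 6.72%). There were 0 in stem-like (10.2%), cycling progenitor-like (15.1%), goblet-like (7.94%) and enteroendocrine-like cells (8.67%). In enterocyte-like cells 6 of the 7 were positive and 6 of the 7 belonged to the cap. The smallest p among them was that of Psmd11, a subunit of the cap's lid, chosen here after its values were seen. It was at 96.6 and 114 CPM in allogeneic enterocyte-like cells against 68.3 and 55.5 CPM in syngeneic ones, without overlap (log2 fold change 0.77, SE 0.28, edgeR adjusted p = 0.216). The chaperone Psmd5 was the negative one, at 7.16 and 4.79 CPM in allogeneic cells against 14.9 and 10.1 CPM in syngeneic cells, on 10 and 28 against 33 and 20 UMIs (log2 fold change -1.17, SE 0.43, edgeR adjusted p = 0.227). By overlap, 19 of 34 members were higher in both allogeneic libraries in enterocyte-like cells (22.6% of all genes), against 9 of 35 in stem-like (18.8%), 8 of 35 in cycling progenitor-like (22%), 7 of 35 in Paneth-like (18.7%), 9 of 35 in goblet-like (18.2%), 9 of 31 in enteroendocrine-like (18.1%) and 7 of 31 in tuft-like cells (17.5%). Enterocyte-like cells of allogeneic 1 numbered 350, and 37 of them stayed under a mitochondrial limit of 10%, against 1245 of 1861 in allogeneic 2 and 221 of 496 and 236 of 528 in the syngeneic libraries; the part of this in the result was not tested.

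Within stem-like cells, the cells named in the title of the series, the groups overlapped for 2 of the 3 catalytic genes. Psmb5 was at 231 and 416 CPM in allogeneic stem-like cells and at 273 and 300.1 CPM in syngeneic ones. Psmb6 was at 274 and 420 CPM in allogeneic cells and at 336 and 349 CPM in syngeneic cells. In both genes allogeneic 1 was the lowest library and allogeneic 2 the highest. Psmb7 did not overlap, at 130 and 140.1 CPM in allogeneic cells and at 119 and 121 CPM in syngeneic cells.

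**Figure D3:**
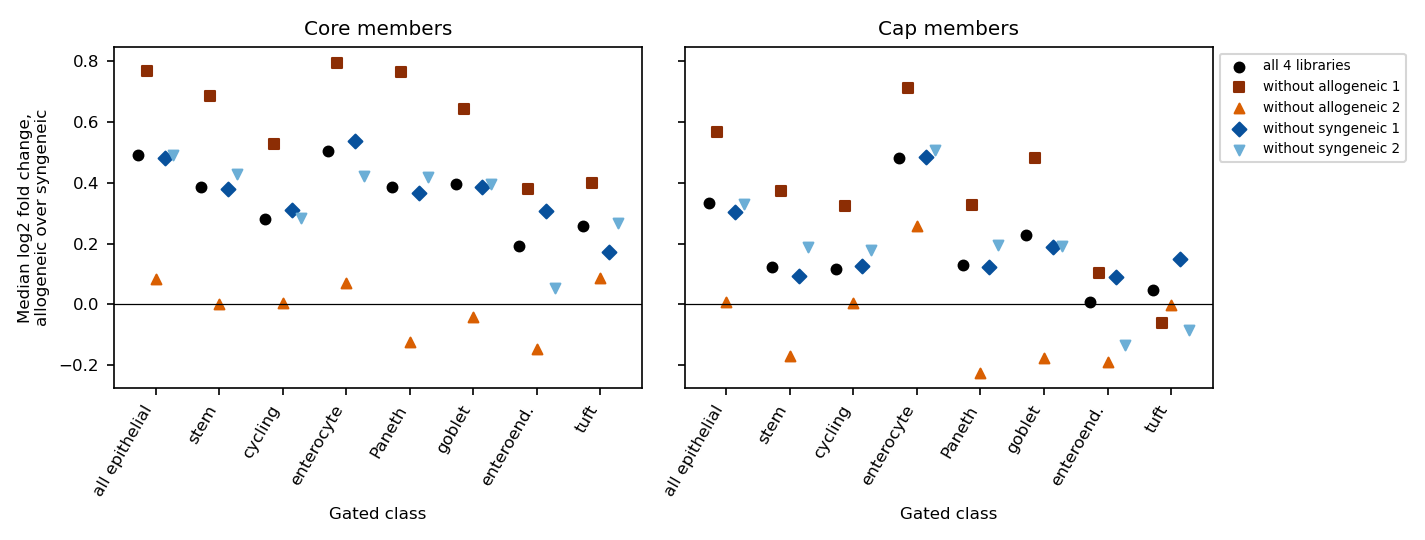
Median log2 fold change, allogeneic over syngeneic, of core and cap members in all epithelial cells and in each gated class, with all 4 libraries and with each library left out. Without allogeneic 2 the core median is 0.082 and the cap median 0.0079 in the epithelial sums, and without allogeneic 1 they are 0.77 and 0.57.

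With TMM scaling, leaving out 1 library at a time shows the same dependence in the test. Without allogeneic 1, 34 of 35 members were called higher in the epithelial sums, with medians of 0.77 for core and 0.57 for cap members, but 23.9% of all genes were called higher as well, because the spread was then taken from the 2 syngeneic libraries. Without allogeneic 2, 1 member (Psma5) was called higher, against 11% of all genes, and 20 of 35 fold changes were positive. Without syngeneic 1 or syngeneic 2 no member was called and the core medians were 0.48 and 0.49. In 5 of the 7 classes calls also appeared without allogeneic 1: 18 members were called higher in stem-like (9.81% of all genes), 24 in cycling progenitor-like (16.8%), 31 in enterocyte-like (20%), 16 in Paneth-like (6.82%) and 29 in goblet-like cells (16.9%). There were 0 in enteroendocrine-like (2.92%) and tuft-like cells (6.86%). Without allogeneic 2 the calls in either direction were 1 in stem-like (lower; 15.6% of all genes), 1 in cycling progenitor-like (higher; 18.9%), 2 in enterocyte-like (higher; 18%) and 1 in Paneth-like cells (lower; 9.38%). They were 0 in goblet-like (9.07%), enteroendocrine-like (4.2%) and tuft-like cells (1.85%). The mice, the cells and the handling of allogeneic 2 cannot be told apart, since it is 1 library. With the mitochondrial limit at 10% the epithelial medians were 0.54 for core and 0.37 for cap members, and with equal numbers of cells per class in every library they were 0.41 and 0.24. The median mitochondrial share of epithelial cells was 9.25% and 5.90% in allogeneic libraries against 7.59% and 7.46% in syngeneic libraries.

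The allogeneic difference was set against itself between classes, with library as a block. One member differed between enterocyte-like and stem-like cells, Psmc4, an ATPase of the cap ring. In enterocyte-like cells it was at 101 and 139 CPM in allogeneic libraries against 76.0 and 69.6 CPM in syngeneic libraries, and in stem-like cells at 86.5 and 135 CPM in allogeneic libraries against 102 and 127 CPM in syngeneic libraries. The groups separated in enterocyte-like cells and overlapped in stem-like cells, and the difference of the 2 effects was 0.86 on the log2 scale (SE 0.23, edgeR adjusted p = 0.0409). Of all genes 3.43% were called in this test, and 1 of 35 members is near that share. The call was lost with total-count scaling (adjusted p = 0.0723), with a mitochondrial limit of 10% (0.194), with doublets kept (0.0541) and without either syngeneic library (0.253 and 0.642). No member was called for cycling progenitor-like minus stem-like cells, where 0.0504% of all genes were; 0 reached an unadjusted p under 0.05, against 5.34% of all genes.

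The cell classes were also compared with each other, over both groups. Levels here are scaled over 12 sums, 3 classes in 4 libraries, with library as a block in the test. In enterocyte-like against stem-like cells 7 members were called higher and 12 lower, of 35, while 38.8% of all genes were called higher and 41.4% lower. The members called higher were all of the cap (Psmc1, Psmc4, Psmc5, Psmd4, Psmd8, Psmd10 and Psmd13), whereas 6 of the 12 called lower were of the core (Psma1, Psma3, Psma5, Psma7, Psmb2 and Psmb5). The medians were -0.16 for core and 0.027 for cap members. The number called higher depended on single libraries: it was 2 without allogeneic 1, 3 without allogeneic 2, 5 without syngeneic 1 and 7 without syngeneic 2, and 3 with a mitochondrial limit of 10%.

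Psma7 fell most in the core: it was at 275, 546, 304 and 271 CPM in enterocyte-like cells of allogeneic 1, allogeneic 2, syngeneic 1 and syngeneic 2, against 494, 1008, 517 and 569 CPM in stem-like cells of the same libraries. It was lower in 4 of 4 libraries (log2 fold change -0.89, SE 0.12, edgeR adjusted p = 4.29e-06). Psmd7, a subunit of the cap's lid, named after its values were seen, fell by 0.96 (SE 0.12, edgeR adjusted p = 2.09e-06), with 95.9, 150, 106 and 104 CPM in enterocyte-like against 185, 268, 201 and 230 CPM in stem-like cells. Psmc1, an ATPase, was higher in 4 of 4 libraries, at 126, 176, 98.5 and 103 CPM in enterocyte-like against 81.1, 91.3, 82.2 and 79.1 CPM in stem-like cells (log2 fold change 0.57, SE 0.14, edgeR adjusted p = 0.00158). Psmc3ip had 1, 2, 0 and 0 UMIs in enterocyte-like against 37, 32, 71 and 41 UMIs in stem-like cells, so it was nearly absent from the absorptive class. With total counts in place of TMM the median of all genes in this contrast was -0.81, against -0.071 with TMM, 31 of 35 members were then called lower (57.6% of all genes) and none higher, and no member had a positive fold change, against 13 with TMM. Every member called higher with TMM thus changed sign, Psmc1 to -0.16 and Psmd10 to -0.13 among them. The medians of the members were then -0.89 for core and -0.71 for cap.

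**Figure D4:**
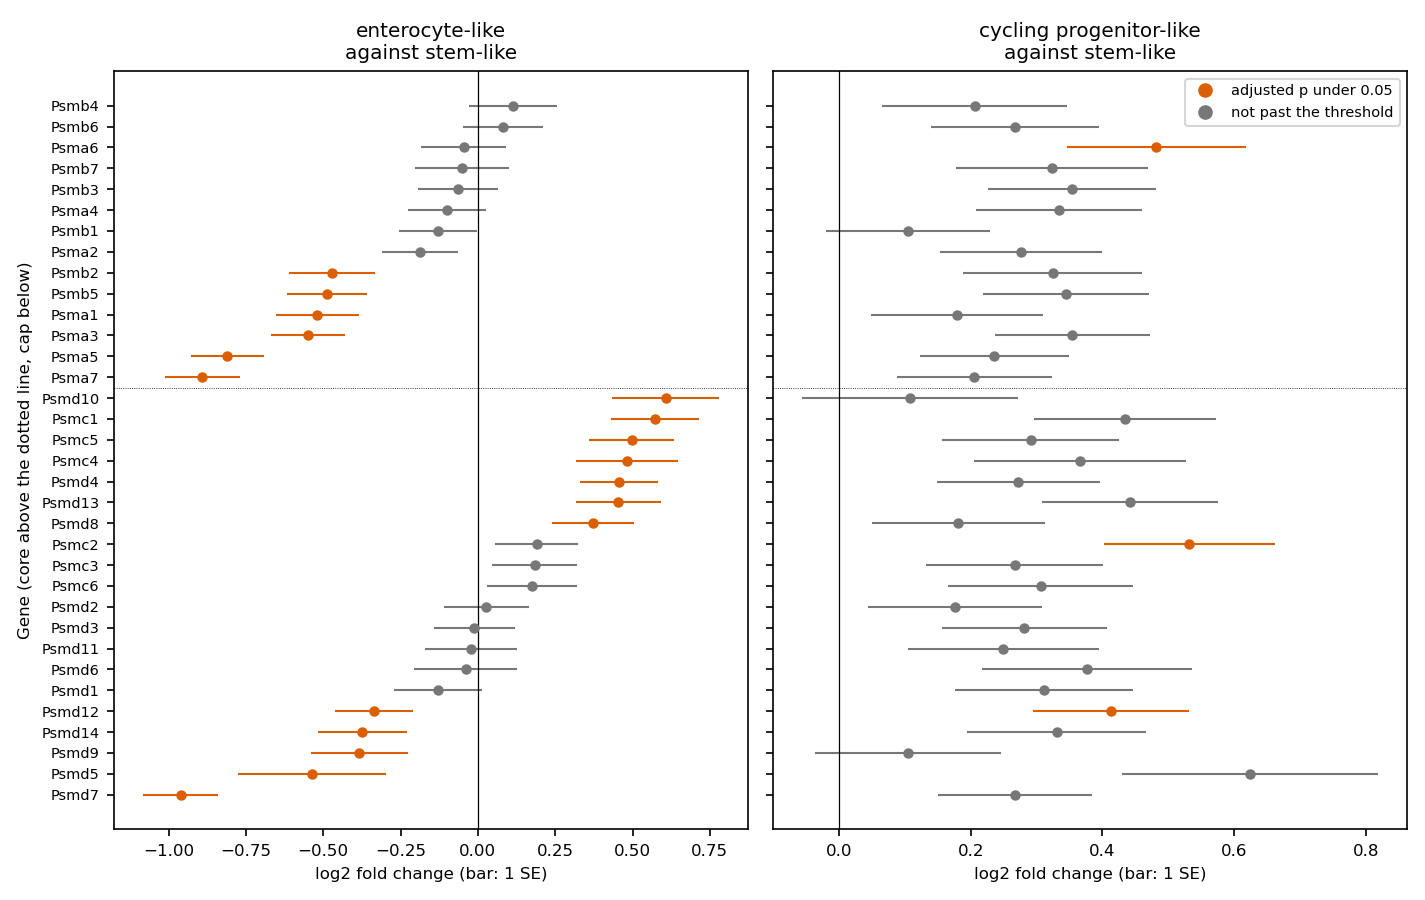
Log2 fold change of each core and cap member (TMM scaling, bar 1 SE) in enterocyte-like against stem-like cells and in cycling progenitor-like against stem-like cells, library as a block; Psmc3ip is not drawn. Orange marks an adjusted p under 0.05: 6 core members lower, 7 cap members higher and 5 cap members lower in enterocyte-like cells, and Psma6, Psmc2 and Psmd12 higher in cycling cells.

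Cycling progenitor-like cells had slightly more of almost every subunit transcript than stem-like cells. Cells past both of these gates and no later one were counted as stem-like. Of 35 members 34 had positive log2 fold changes, against 50.1% of all genes. The medians were 0.30 for core and 0.29 for cap members against 0.0010 for all genes. Of the 35 members 22 reached an unadjusted p under 0.05, against 24.2% of all genes. After adjustment 3 were called, all higher, against 3.84% of all genes called higher. They were Psmc2, an ATPase (log2 fold change 0.53, SE 0.13, edgeR adjusted p = 0.0179), Psma6, an alpha subunit (0.48, SE 0.14, adjusted p = 0.0383), and Psmd12, of the lid (0.41, SE 0.12, adjusted p = 0.0416). Psmc2 was at 102, 142, 118 and 123 CPM in cycling progenitor-like cells of allogeneic 1, allogeneic 2, syngeneic 1 and syngeneic 2, against 69.9, 105, 86.4 and 74.6 CPM in stem-like cells. None of these 3 was called without allogeneic 1, without syngeneic 1 or without syngeneic 2. The number called ran between 0 and 6 members over the alternatives. For 32 of the 35 members the level was higher in cycling progenitor-like cells of all 4 libraries. That share was not counted for all genes or for genes of like level.

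The inducible subunits were set beside the constitutive ones. Psmb8 was at 620 and 1033 CPM in allogeneic epithelial cells against 383 and 357 CPM in syngeneic ones (log2 fold change 1.16, SE 0.37, edgeR adjusted p = 0.370). Psmb9 was at 267 and 525 CPM in allogeneic cells against 169 and 166 CPM in syngeneic cells, by 1.24 on the log2 scale (SE 0.41, adjusted p = 0.385). Neither passed the test in the epithelial sums, although both groups stood apart without overlap; Psmb9 passed it in enteroendocrine-like cells (log2 fold change 1.41, SE 0.39, edgeR adjusted p = 0.0287). Psmb10, the remaining inducible gene, did not pass in the epithelial sums either. Its log2 fold change of 0.61 lay inside the constitutive members' range of -0.063 to 0.62.

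Ratios inside a library carry no scaling. Psmb8 over Psmb5 was 3.00 and 2.79 in allogeneic epithelial cells, against 1.63 and 1.46 in syngeneic ones. Psmb9 over Psmb6 was 1.07 and 1.28 in allogeneic cells, against 0.571 and 0.579 in syngeneic cells. In both pairs the 2 allogeneic libraries were above the 2 syngeneic ones in all epithelial cells and in each of the 7 classes. Allogeneic 1 shared the height of these ratios, while in TMM-scaled epithelial levels of Psmb5 and Psmb6 alone it was the lowest library. Psmb10 over Psmb7 did not separate in all epithelial cells, at 2.38 and 3.39 in allogeneic cells against 2.61 and 2.88 in syngeneic cells. In enterocyte-like cells that last ratio was 4.24 and 4.09 in allogeneic against 5.16 and 5.72 in syngeneic libraries, lower in both. In goblet-like cells it was 2.51 and 3.51 in allogeneic against 2.41 and 2.26 in syngeneic libraries, higher in both, and in the other 5 classes the groups overlapped. The processed pseudogenes Psmb5-ps, Psmb6-ps, Psmb6-ps2 and Psmb7-ps2 are annotated in GENCODE M21 and are not among the features. How reads that match 1 of these 3 genes and a copy equally well were counted was not examined.

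**Figure D5:**
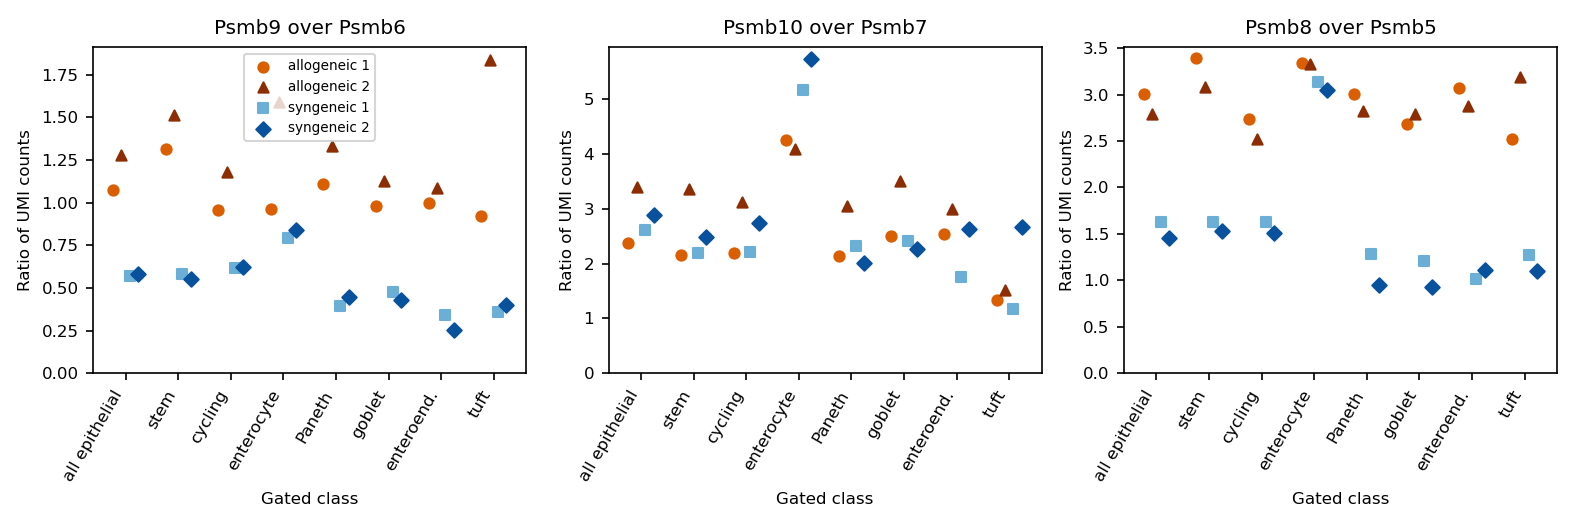
Ratio of UMI counts of each inducible catalytic gene over its constitutive counterpart, by library, in all epithelial cells and in each gated class. Psmb9 over Psmb6 and Psmb8 over Psmb5 are higher in both allogeneic libraries in every class, and Psmb10 over Psmb7 overlaps in all epithelial cells.

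Other genes of the pathway were followed on lists chosen with earlier results known. Of the proteasome activators and their inhibitor, 0 of 5 passed in the epithelial sums; Psme1, a subunit of the interferon-induced activator, was at 634 and 940 CPM in allogeneic against 398 and 369 CPM in syngeneic libraries (log2 fold change 1.04, SE 0.34, edgeR adjusted p = 0.385), and its partner Psme2 at 548 and 1036 CPM against 506 and 498 CPM. Of the genes for assembly 0 of 5 passed, with Pomp, the maturation factor of the core, at 310 and 644 CPM in allogeneic against 317 and 331 CPM in syngeneic libraries and the core chaperone Psmg4 at 42.1 and 56.1 CPM against 38.0 and 46.8 CPM. Of the cap-associated factors 0 of 8 passed, the smallest p being those of Usp14, which trims ubiquitin at the cap, at 83.0 and 87.7 CPM in allogeneic against 66.1 and 67.5 CPM in syngeneic libraries, and of the ubiquitin receptor Adrm1, at 72.5 and 143 CPM against 77.3 and 76.1 CPM.

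Of the genes for transcription of proteasome genes 0 of 4 passed the threshold, and 2 had positive and 2 negative fold changes. Nfe2l2 was at 54.5 and 70.3 CPM in allogeneic libraries against 88.0 and 82.8 CPM in syngeneic libraries (log2 fold change -0.45, SE 0.24, edgeR adjusted p = 0.632), and Ddi2, the protease that activates Nfe2l1, at 31.9 and 21.7 CPM against 39.3 and 38.7 CPM (log2 fold change -0.54, SE 0.24, edgeR adjusted p = 0.552). Ngly1, which deglycosylates Nfe2l1, was called in the test of the difference between classes. Its allogeneic effect was 1.26 higher on the log2 scale in enterocyte-like than in stem-like cells (SE 0.35, edgeR adjusted p = 0.0487). Of all genes 3.43% were called in this test, and Ngly1 was not followed under the alternatives. Nfe2l1 itself was at 35.7 and 36.1 CPM in allogeneic libraries against 34.5 and 34.8 CPM in syngeneic libraries. The 5 members with the printed element had log2 fold changes of 0.26 (Psmb5), 0.18 (Psmb6), 0.41 (Psmc6), 0.48 (Psmd9) and 0.47 (Psmd12). All lay inside the members' range of -0.063 to 0.62. Psmb5 and Psmb6 were below the core median of 0.49, and Psmc6, Psmd9 and Psmd12 above the cap median of 0.33.

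Of the ubiquitin genes, 0 of 6 passed in the epithelial sums and 1, Ube2l6, passed in 4 classes. Ube2l6 encodes the conjugating enzyme for the ubiquitin-like modifier ISG15. In all epithelial cells it was at 30.8 and 73.4 CPM in allogeneic against 11.9 and 14.9 CPM in syngeneic libraries (log2 fold change 1.96, SE 0.44, edgeR adjusted p = 0.208). It was at 24.3 and 45.9 CPM in allogeneic stem-like cells against 4.69 and 4.82 CPM in syngeneic ones (log2 fold change 2.79, SE 0.39, edgeR adjusted p = 0.0102). It also rose in cycling progenitor-like (2.86, adjusted p = 0.000146), Paneth-like (3.07, adjusted p = 0.0159) and goblet-like cells (2.63, adjusted p = 0.0421), and the effect was 1.73 lower on the log2 scale in enterocyte-like than in stem-like cells (edgeR adjusted p = 0.0027). The largest log2 fold change of a constitutive member in these 4 classes was 0.81, for Psmd9 in Paneth-like cells.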

How the data were processed

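UMI counts per gene and cell were used as deposited by the authors, who made them with Cell Ranger 2.1.1 on mm10 per the submitters' processing notes, while the matrix headers give software 3.1.0. No source used here names the annotation release or how cells were called.

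The cells analysed had 500 or more genes, 1000 or more UMIs and a mitochondrial share of 20% or less, and Scrublet (scanpy 1.11.5) removed 89 doublets. Classes are gates on summed marker UMIs per 10000, listed here in the order applied, later gates overruling earlier ones. They were 20 for cycling progenitor-like, 20 stem-like, 150 enterocyte-like, 100 goblet-like, 400 Paneth-like, 20 enteroendocrine-like and 10 tuft-like. A cell past both the cycling and the stem-like gate was thus not counted as cycling. Counts were summed per library and class (at least 20 cells in each), and, after filterByExpr and TMM scaling, compared in edgeR 4.0.16 (robust quasi-likelihood test, Benjamini-Hochberg over all genes, threshold 0.05); DESeq2 1.42.0 was an alternative. The fit was tested on simulated data with larger changes than the members' allogeneic differences and the same spread for every gene. That test does not cover small changes or libraries of a group that diverge. CPM are TMM-scaled levels. With 2 pools per group, p-values of the allogeneic comparisons are set against the spread between these pools. Those of the class contrasts, with library as a block, are set against the spread of class differences between libraries.

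Members, gene lists and gates were chosen with earlier results of these data known. Named were the catalytic genes, 3 cap genes by role, in core and cap the 3 smallest p, the 3 highest and 3 lowest levels, the member differing most within each group, members past the threshold, and the 2 smallest p of each related list (1 gene among these is not reported here); others are marked as chosen after their values were seen. Replicate numbers follow accession order. Promoter windows were also searched for 2 interferon motifs, which are not reported here: the gamma-activated site matched no member window, and the interferon-stimulated response element matched a larger share of member than of all windows. Both were dropped after their results had been seen.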

Additional observations from a re-analysis of the deposited data

Results flagged for a closer look

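Psmc4, an ATPase of the cap ring, was flagged by rule, because its allogeneic effect was called in the test of the difference between 2 cell classes. The effect was 0.86 higher on the log2 scale in enterocyte-like than in stem-like cells (SE 0.23, edgeR adjusted p = 0.0409). It was the one member of 35 called, which is near the 3.43% of all genes called in this test. Psmc4 lost the call with total-count scaling, with doublets kept and with a mitochondrial limit of 10%. Over the alternatives its adjusted p ran from 0.00219 to 0.642. Of the enterocyte-like cells, 37 of 350 in allogeneic 1 and 1245 of 1861 in allogeneic 2 stayed under a mitochondrial limit of 10%, against 221 of 496 and 236 of 528 in the syngeneic libraries; with that limit the difference was 0.90 (edgeR adjusted p = 0.194).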

How the results depend on the processing

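The epithelial core and cap medians stayed positive under each alternative run. With total counts in place of TMM, 28 members had both allogeneic libraries above both syngeneic ones, 0 members had effects that differed between enterocyte-like and stem-like cells, 31 were called in enterocyte-like against stem-like cells (no fold change was then positive, against 13 with TMM; Psmc1 was at -0.16 and Psmd10 at -0.13) and 6 in cycling progenitor-like against stem-like cells. A mitochondrial limit of 10% gave 0 members whose effect differed between enterocyte-like and stem-like cells and 1 called in cycling against stem-like cells, and keeping doublets gave 0 members whose effect differed. The cause was not tested.

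Leaving out 1 library at a time, with the spread then taken from the other group, gave between 0 and 34 calls in all epithelial cells, 0 to 18 in stem-like, 0 to 24 in cycling progenitor-like, 0 to 32 in enterocyte-like, 0 to 16 in Paneth-like and 0 to 29 in goblet-like cells, 0 to 6 for the difference between enterocyte-like and stem-like effects and 0 to 6 in cycling against stem-like cells. The epithelial log2 fold change then ran from -0.22 to 0.61 for Psmb5, from -0.23 to 0.47 for Psmb6, from -0.0013 to 0.57 for Psmd14 and from -0.12 to 1.09 for Psmb3, the lowest value being that without allogeneic 2. Enteroendocrine-like and tuft-like cells were not tested with a mitochondrial limit of 10% or stricter gates, since a library then held under 20 cells. No paired analysis was possible because the labels give the libraries no shared replicate numbers. With 2 pools per group, small differences cannot be shown.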
